A study of Mus musculus with 5 samples.

Results

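The 10 genes described here are Vegfa, which encodes the growth factor VEGF-A, and 9 genes that mark endothelial cells (Pecam1, Cdh5, Kdr, Flt1, Emcn, Egfl7, Plvap, Tie1 and Tek). They were chosen by name from the 23857 genes of the deposited table. All 10 were found in it and passed the filter on low values. Bulk RNA was sequenced from oviduct (fallopian tube) stromal cells that carried YFP and were sorted by it, in 5 young adult female mice. Control mice 2 and 3 had the genotype Pdgfra-Cre;R26Y (labelled wild-type), that is, a Cre driver and the YFP reporter at Rosa26. The 3 experimental mice, numbered 1 to 3, had both of these plus Esr1 fl/fl, in which the estrogen receptor alpha gene is floxed. Cre is made under the promoter of Pdgfra, a mesenchymal gene, so deletion and YFP are both limited to cells in which that promoter is or was active. The labels do not say whether the mice were littermates or which stage of the estrous cycle they were in, and p-values measure the spread between these libraries.

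The level of the targeted gene did not follow the labels. Esr1 was at 83.3 and 77.6 TPM (a length-corrected share of the library, scaled to a total of 1000000) in control mice 2 and 3. Under the knockout label it was at 28.9, 85.0 and 170 TPM in mice 1, 2 and 3. It was below both controls in mouse 1 only (log2 fold change -0.10, standard error 0.64, limma adjusted p 0.948, exact permutation p 1.0), and gene-level values do not show whether floxed exons are missing. The sum of 10 markers of oviduct epithelium was also lowest in knockout mouse 1 and highest in knockout mouse 3. It was 3065 and 3334 TPM in the control pair, against 2163, 12066 and 13169 TPM in knockout-labelled mice 1, 2 and 3. Most of that sum was the glycoprotein gene Ovgp1. Not every marker had that order: Cldn4 was highest in control mouse 3 and lowest in knockout mouse 3, and Pax8 was lowest in control mouse 2. The part of epithelial cells in the Esr1 values was not tested. Knockout mouse 1 also stood apart in the fit across all genes: leaving it out took the calls at an adjusted p under 0.05 from 5 to 1524 genes. The fit without it keeps only knockout mice 2 and 3, with Esr1 at 85.0 and 170 TPM and the higher epithelial sums. Passing in that fit thus does not tie a gene to lower Esr1. Calls on named genes and lists that changed without knockout mouse 1 are therefore given both ways. Every direction below is that of the libraries labelled knockout relative to controls. Between 15841 genes, in knockout mouse 3, and 19432, in control mouse 3, reached 1 TPM, and TPM keep no sequencing depth. In bulk RNA, fewer cells of a type and less RNA per cell cannot be told apart.

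VEGF-A is secreted by stromal, epithelial and immune cells and acts on endothelial cells, which line blood and lymph vessels. Its main signalling receptor is the product of Kdr, while the product of Flt1 binds VEGF-A tightly and limits its supply to Kdr. Tek encodes the receptor of the angiopoietins, which steady or loosen the vessel wall, and Tie1 encodes its partner. Vegfa lies at chr17:46016993-46032377, Kdr at chr5:75932827-75979072, Flt1 at chr5:147561604-147726438, Tie1 at chr4:118471191-118489849 and Tek at chr4:94739086-94874976 (RefSeq, GRCm38.p6; the submitters' processing notes name mm10, the same assembly). Pecam1 lies at chr11:106654213-106715281, Cdh5 at chr8:104101613-104144504, Emcn at chr3:137341062-137431069, Plvap at chr8:71497753-71511806 and Egfl7 at chr2:26581083-26592682. All 10 are protein-coding genes.

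RefSeq promoter windows for GRCm38.p6 were matched for 7 of the 10 genes. The 250 bases before the start site are shown for 3 genes whose window lies outside the annotated gene: Vegfa, which separated the groups, and Tie1 and Egfl7, which did not. Sequences read 5′ to 3′ on the gene's strand. Capitals mark AGGAAG or its reverse complement CTTCCT, and GGTCA or TGACC, a half-site of the estrogen response element. AGGAAG is a hexamer around GGAA, the core bound by ETS factors of endothelial cells. Other sites with that core, which the windows also hold, were not counted. ACGTG or CACGT, the core of the hypoxia response element, was also searched on both strands. The Vegfa window, chr17:46032378-46032627 on the minus strand, held none of the 3 motifs. The Tie1 window, chr4:118489850-118490099 on the minus strand, held 1 ETS hexamer, and the Egfl7 window, chr2:26580833-26581082 on the plus strand, held 3 ETS hexamers and 1 half-site.
Vegfa: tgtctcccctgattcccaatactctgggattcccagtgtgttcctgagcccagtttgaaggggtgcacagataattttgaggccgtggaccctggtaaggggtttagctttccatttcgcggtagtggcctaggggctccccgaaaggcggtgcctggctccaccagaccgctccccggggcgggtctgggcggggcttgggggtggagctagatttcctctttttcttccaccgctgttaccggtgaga
Tie1: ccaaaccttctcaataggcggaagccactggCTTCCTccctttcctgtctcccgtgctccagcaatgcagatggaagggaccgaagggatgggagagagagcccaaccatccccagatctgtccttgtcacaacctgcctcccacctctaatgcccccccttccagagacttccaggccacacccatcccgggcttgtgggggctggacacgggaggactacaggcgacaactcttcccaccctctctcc
Egfl7: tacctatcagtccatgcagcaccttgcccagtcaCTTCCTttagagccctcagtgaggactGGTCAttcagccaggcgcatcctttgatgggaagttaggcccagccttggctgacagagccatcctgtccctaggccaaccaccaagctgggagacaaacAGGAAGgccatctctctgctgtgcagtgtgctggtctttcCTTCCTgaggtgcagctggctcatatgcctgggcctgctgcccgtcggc
Over all 10 windows of these 7 genes, the ETS hexamer was in 5, the half-site in 5 and the hypoxia core in 1. That 1 is a window before a second Vegfa start and lies inside the annotated gene. Among the 32851 windows of the same length in the RefSeq table, 29.5% held the ETS hexamer, 35.2% the half-site and 16.6% the hypoxia core. A match is a description of the letters and shows no binding. Bases outside these windows of 250 were not searched, so a window without a match does not show that the gene lacks the motif.

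Vegfa was lower in every library labelled knockout than in either control. It was at 94.7 and 106 TPM in the control pair, against 49.8, 53.2 and 60.7 TPM in knockout-labelled mice 1, 2 and 3. The groups did not overlap, and the gap between them was wider than the range within either group. Controls averaged 100.2 ± 7.70 TPM (SD, n = 2), and the knockout-labelled mean of 54.6 ± 5.62 TPM (SD, n = 3) was 45.5% lower. The log2 fold change on the log2(TPM + 1) scale was -0.87 (standard error 0.17, 95% confidence interval -1.26 to -0.47). It did not pass the threshold of 0.05 after adjustment over all 19292 genes tested (limma, adjusted p 0.157), and the exact two-sided permutation p was 0.1, the smallest that 2 against 3 libraries allow. Without knockout mouse 1, the only library of its group with Esr1 below both controls, Vegfa passed at -0.80 (limma, adjusted p 0.0280). Immune markers, some of whose cells express Vegfa, were lower in the same libraries. Their sum, mostly Lyz2, was 1955 to 2530 TPM in controls and 679 to 1490 TPM under the knockout label. Of these markers 7 of 8 were below both controls, where 21.9% of all tested genes were. The part of immune cells in the Vegfa values was not tested.

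**Figure D1:**
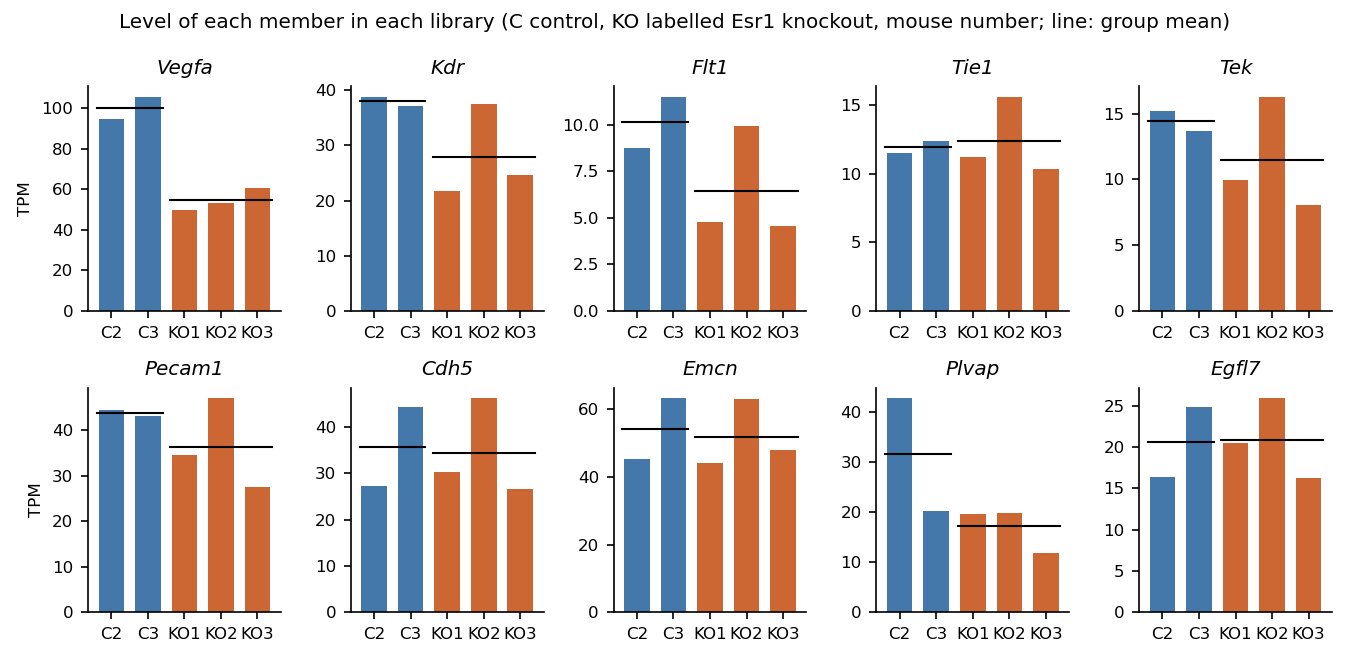
TPM of each of the 10 genes (y axes, from 0) in the 5 libraries (x axes; C2 and C3 are control mice 2 and 3, KO1 to KO3 the mice labelled Esr1 knockout), with a black line at each group mean. Vegfa reaches 94.7 and 106 TPM in the controls but 49.8 to 60.7 TPM under the knockout label, while for the endothelial genes other than Plvap the groups overlap.

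The receptors of VEGF-A were lower in knockout mice 1 and 3 and at control level in knockout mouse 2. Kdr was at 38.8 and 37.2 TPM in the control pair, against 21.8, 37.5 and 24.7 TPM in knockout-labelled mice 1, 2 and 3. The value of knockout mouse 2 lay between the controls, so the groups overlapped. Its log2 fold change was -0.47 (standard error 0.25, limma adjusted p 0.436, interval -1.06 to 0.12). Flt1 was at 8.78 and 11.5 TPM in the control pair, against 4.78, 9.94 and 4.56 TPM in knockout-labelled mice 1, 2 and 3. Again the value of knockout mouse 2 was between those of the controls, and the other libraries labelled knockout lay below both. The log2 fold change of Flt1 was -0.65 (standard error 0.35, limma adjusted p 0.436, interval -1.47 to 0.17). The table gives 1 value per gene, so the soluble and membrane-bound forms of Flt1 are not separated.

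Tek and Tie1, for the angiopoietin receptor and its partner, overlapped between the groups. Tek was at 15.2 and 13.7 TPM in the control pair, against 9.97, 16.3 and 8.06 TPM in knockout-labelled mice 1, 2 and 3. The library of knockout mouse 2 was the highest of all 5 and that of knockout mouse 3 the lowest (log2 fold change -0.36, standard error 0.30, limma adjusted p 0.577). Tie1 was at 11.5 and 12.4 TPM in the control pair, against 11.2, 15.6 and 10.4 TPM in knockout-labelled mice 1, 2 and 3. The log2 fold change of Tie1, 0.03, had a standard error of 0.23 and an interval of -0.51 to 0.58 (limma, adjusted p 0.950), and it was -0.023 when Rpph1 and Rn45s, a pair of abundant non-coding RNAs, were left out.

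Junction, surface and secreted markers of endothelial cells overlapped between the groups, with 1 exception. Pecam1, an adhesion molecule of endothelial cells that leukocytes and platelets also carry, was at 44.4 and 43.0 TPM in the control pair, against 34.4, 47.0 and 27.5 TPM in knockout-labelled mice 1, 2 and 3. Its log2 fold change was -0.29 (standard error 0.24, limma adjusted p 0.576). Cdh5, the cadherin of endothelial junctions, was at 27.2 and 44.2 TPM in the control pair, against 30.3, 46.2 and 26.7 TPM in knockout-labelled mice 1, 2 and 3. The controls thus spanned nearly the whole range of the other group (log2 fold change -0.05, standard error 0.30, interval -0.77 to 0.66). Emcn, a sialomucin of veins and capillaries, was at 45.2 and 63.3 TPM in the control pair, against 44.3, 62.9 and 48.0 TPM in knockout-labelled mice 1, 2 and 3. For Emcn the log2 fold change was -0.06 (standard error 0.23). Egfl7, which encodes a factor secreted by endothelial cells, was at 16.4 and 24.9 TPM in the control pair, against 20.5, 25.9 and 16.3 TPM in knockout-labelled mice 1, 2 and 3. For Egfl7 the value was 0.02 (standard error 0.27), and its sign turned to -0.063 after quantile normalization. The limma adjusted p was 0.942 for Cdh5, 0.902 for Emcn and 0.975 for Egfl7.

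Plvap, which forms the diaphragms of fenestrated endothelium, was the other gene without overlap between the groups. It was at 42.7 and 20.3 TPM in the control pair, against 19.7, 19.8 and 11.9 TPM in knockout-labelled mice 1, 2 and 3. Control mouse 3 stood close to knockout mice 1 and 2, and the gap between the controls was wider than that from control mouse 3 to any of the other group. The log2 fold change was -0.78 (standard error 0.36, limma adjusted p 0.392), and it was -0.27 without control mouse 2 and -1.3 without control mouse 3.

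Of the 10 genes, 0 passed an adjusted p under 0.05 in limma, where 0.0259% of all 19292 tested genes did (0.0104% higher and 0.0156% lower). At an unadjusted p under 0.05 there was 1, Vegfa, against 13.6% of all tested genes, 3.7% higher and 9.87% lower. That split over all genes, 713 higher and 1904 lower, was 1195 and 1378 after quantile normalization and 1289 and 1711 after median-of-ratios scaling. The groups did not overlap for 2 of 10, both lower, a share close to the background: 21.9% of tested genes lay below both controls in every knockout-labelled library, and 33.9% were separated in either direction. Without knockout mouse 1 the only one of the 10 to pass was Vegfa, where 7.98% of tested genes passed (5.35% higher and 2.63% lower). With library weights estimated from the data it was again Vegfa, against 3.4% of tested genes (1.35% higher and 2.05% lower). Of the 10 fold changes 8 were below 0, where 52.2% of all tested genes were. The count became 9 after quantile normalization, 10 without Rpph1 and Rn45s and 6 without knockout mouse 1. The median log2 fold change of the 9 endothelial genes was -0.29, beside -0.022 for all tested genes.

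The 9 endothelial genes varied within the group labelled knockout. In all 9, by little for Plvap, knockout mouse 2 was above knockout mice 1 and 3, and it was the highest of the 5 libraries for 5 of them. Knockout mouse 3 was the lowest for 7 and knockout mouse 1 for the other 2. Summed over the 9, the level was 250 and 270.5 TPM in the control pair, against 197, 281 and 178 TPM in knockout-labelled mice 1, 2 and 3. The difference between mice 2 and 3 of the knockout group was thus wider than that between the controls. The median fold change was -0.49 without knockout mouse 2 and -0.12 without knockout mouse 3. The order for Vegfa was another, with knockout mouse 1 the lowest and knockout mouse 3 the highest of its group.

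**Figure D2:**
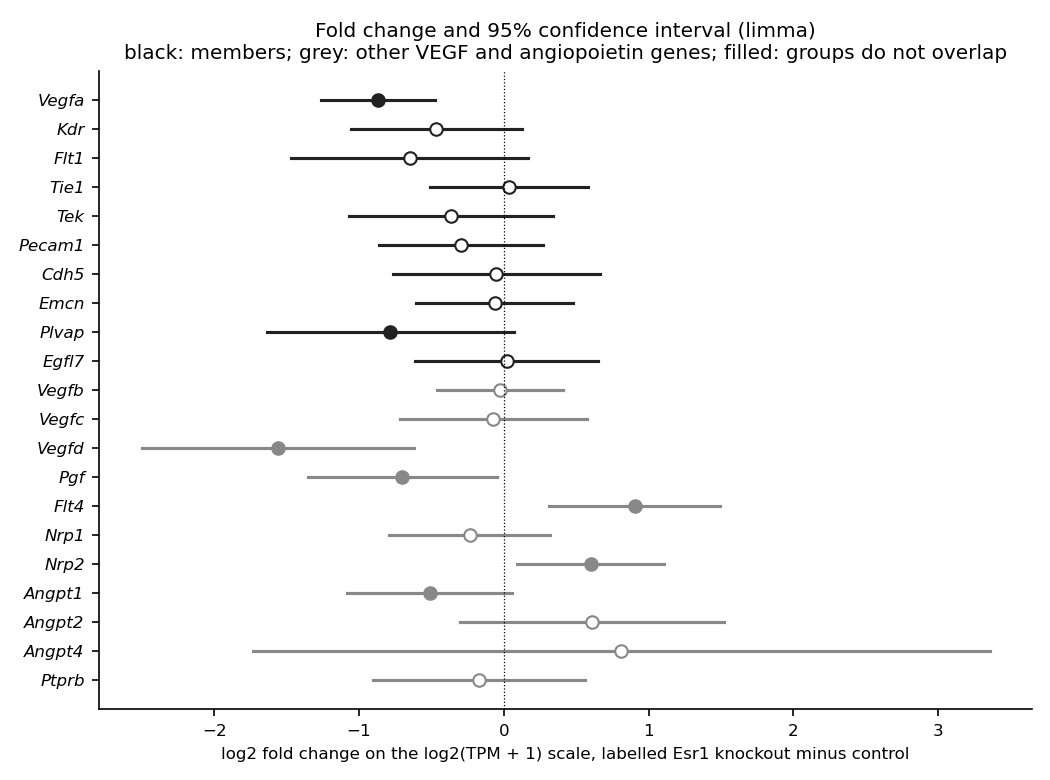
Log2 fold change on the log2(TPM + 1) scale (x axis, labelled knockout minus control) with its 95% confidence interval from limma, for the 10 genes (black) and 11 other ligands and receptors of the pathway (grey), 1 gene per row; filled points are genes whose groups do not overlap. Vegfa at -0.87 is the gene of the 10 whose interval excludes 0, and Vegfd at -1.56 and Flt4 at 0.90 lie farther out among the others.

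Of 11 other VEGF and angiopoietin ligands and receptors, 0 passed in limma. Without knockout mouse 1, 2 passed (Vegfd lower and Angpt2 higher), where 2.63% of all tested genes passed as lower and 5.35% as higher. With all libraries 4 had an unadjusted p under 0.05, with 2 of 11 above and 3 of 11 below both controls in every knockout-labelled library. Over all tested genes 13.6% had an unadjusted p under 0.05, 11.9% were above and 21.9% below, so the counts of separated genes lie near the background. With library weights Vegfd (limma, adjusted p 0.0341) and Flt4 (adjusted p 0.0457) passed. Vegfd, a ligand of the lymphatic receptor Flt4, was at 120.3 and 92.2 TPM in the control pair, against 57.4, 36.2 and 20.5 TPM in knockout-labelled mice 1, 2 and 3. All 3 libraries labelled knockout were below both controls, and they differed among themselves by more than the controls did. For Vegfd the log2 fold change was -1.56 (standard error 0.40, limma adjusted p 0.209), and without knockout mouse 1 it was -1.91 with an adjusted p of 0.0236. Pgf, a ligand of Flt1, was at 12.2 and 14.5 TPM in the control pair, against 10.7, 7.50 and 5.81 TPM in knockout-labelled mice 1, 2 and 3, with no overlap. Vegfb, another ligand of Flt1, averaged 48.4 ± 1.30 TPM (SD, n = 2) in controls, against 47.9 ± 7.45 TPM (SD, n = 3) under the knockout label, with an interval of -0.46 to 0.41 for the log2 fold change. Vegfc, the other ligand of Flt4, averaged 13.9 ± 3.23 TPM (SD, n = 2) in controls, against 13.3 ± 3.58 TPM (SD, n = 3), with an interval of -0.72 to 0.57. Both overlapped between the groups. The limma adjusted p was 0.348 for Pgf, 0.951 for Vegfb and 0.908 for Vegfc.

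Among the receptors and co-receptors, Flt4 was at 10.6 and 9.75 TPM in the control pair, against 17.4, 26.9 and 16.7 TPM in knockout-labelled mice 1, 2 and 3. All libraries labelled knockout were above both controls (log2 fold change 0.90, standard error 0.25, limma adjusted p 0.230). Nrp2, a co-receptor of Flt4, averaged 19.9 ± 1.10 TPM (SD, n = 2) in controls, against 31.1 ± 6.62 TPM (SD, n = 3) under the knockout label, also without overlap (log2 fold change 0.60, limma adjusted p 0.324). Nrp1, the co-receptor of Kdr, averaged 97.7 ± 1.27 TPM (SD, n = 2) in controls, against 84.7 ± 21.5 TPM (SD, n = 3), and overlapped (limma adjusted p 0.643). Ptprb, a phosphatase that dampens Tek, averaged 14.7 ± 4.76 TPM (SD, n = 2) in controls, against 13.0 ± 4.21 TPM (SD, n = 3), and overlapped too (limma adjusted p 0.803).

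The angiopoietins, the ligands of Tek, had unlike values. Angpt1, which activates Tek, was at 18.6 and 16.0 TPM in the control pair, against 14.2, 12.9 and 8.95 TPM in knockout-labelled mice 1, 2 and 3. All 3 lay below both controls (log2 fold change -0.51, limma adjusted p 0.398). Angpt2, which competes with Angpt1 in many settings, was at 8.35 and 7.50 TPM in the control pair, against 6.89, 17.5 and 16.2 TPM in knockout-labelled mice 1, 2 and 3. Knockout mice 2 and 3 were high and mouse 1 was below both controls, so its log2 fold change was 0.61 (limma, adjusted p 0.497) in all libraries and 1.00 (limma, adjusted p 0.0310) without mouse 1. Angpt4 was at 119.4 TPM in knockout mouse 1 and between 5.83 and 20.8 TPM elsewhere, and its log2 fold change of 0.81 (limma, adjusted p 0.730) became -0.29 without that library.

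Lymphatic endothelial genes were mostly at higher levels in the libraries labelled knockout. Of 7 listed, Flt4 among them, Ccl21a was listed at 0 in all libraries, and 5 of the 6 tested were above both controls in every knockout-labelled library, where 11.9% of all tested genes were. In limma 0 of 6 passed, 4 had an unadjusted p under 0.05, and the median log2 fold change was 0.92 (0.71 to 1.10 over all alternatives). Over all tested genes 3.7% were higher at an unadjusted p under 0.05. With library weights 4 of 6 passed as higher, against 1.35% of all tested genes: Mmrn1 (limma, adjusted p 0.0193), Reln (0.0313), Flt4 (0.0457) and Prox1 (0.0498). Mmrn1, a secreted protein of lymphatic endothelium and platelets, was at 14.3 and 10.8 TPM in the control pair, against 41.6, 61.9 and 35.0 TPM in knockout-labelled mice 1, 2 and 3. The lowest of these exceeded the sum of both controls. The log2 fold change was 1.77 (standard error 0.27, limma adjusted p 0.117), and without knockout mouse 1 it passed at 1.82 (adjusted p 0.0267). Reln was at 6.37 and 4.38 TPM in the control pair, against 11.1, 18.8 and 14.5 TPM in knockout-labelled mice 1, 2 and 3. Its log2 fold change was 1.30 (limma, adjusted p 0.187), and 1.48 without knockout mouse 1 (adjusted p 0.0286). Mmrn1 and Reln were the 2 of 6 that passed without that mouse, where 5.35% of all tested genes passed as higher. Prox1, the transcription factor that sets lymphatic identity, was at 2.93 and 3.18 TPM in the control pair, against 6.30, 8.90 and 5.58 TPM in knockout-labelled mice 1, 2 and 3 (a log2 difference of 0.95, limma adjusted p 0.230). Pdpn, which epithelial and stromal cells also express, had a log2 fold change of 0.73 (limma, adjusted p 0.385). It was at 102.8 and 82.4 TPM in the control pair, against 104.0, 148.9 and 230.3 TPM in knockout-labelled mice 1, 2 and 3. Knockout mouse 1 was thus barely above control mouse 2, and knockout mouse 3 was the highest. Lyve1, which macrophages share, was at 34.4 and 25.7 TPM in the control pair, against 21.8, 35.7 and 28.3 TPM in knockout-labelled mice 1, 2 and 3, with full overlap. Prox1, Flt4, Mmrn1 and Reln had their highest value in knockout mouse 2, the library that was also highest for 5 of the 9 endothelial genes.

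**Figure D3:**
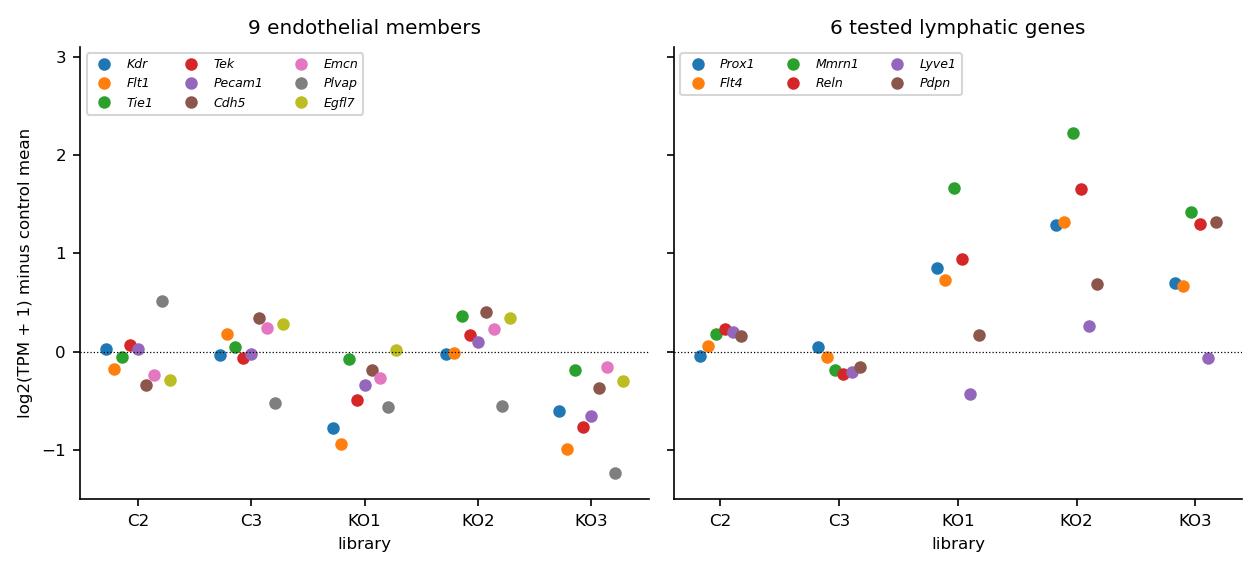
Log2(TPM + 1) minus the control mean (y axis) in each library (x axis; C2 and C3 controls, KO1 to KO3 labelled knockout) for the 9 endothelial genes (left) and 6 lymphatic genes (right), 1 colour per gene within a panel. The left points spread around 0 in knockout mouse 2 and mostly below it in mice 1 and 3. On the right, Prox1, Flt4, Mmrn1, Reln and Pdpn are above both controls in all 3, Pdpn barely so in knockout mouse 1.

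Other endothelial markers gave mixed values. In a list of 25, 0 passed in limma and 4 had an unadjusted p under 0.05, where 13.6% of all tested genes did. In every knockout-labelled library 5 were below and 0 above both controls, a share near the 21.9% of all tested genes that were below. The median log2 fold change was -0.22. Icam2, an adhesion molecule of endothelial cells and platelets, was at 18.7 and 19.7 TPM in the control pair, against 6.47, 9.58 and 8.30 TPM in knockout-labelled mice 1, 2 and 3. Esam, a junction molecule, was at 45.7 and 40.6 TPM in the control pair, against 18.4, 26.3 and 23.4 TPM in the others. Both were low in knockout mouse 2 as well, with log2 fold changes of -1.16 and -0.91 and limma adjusted p of 0.155 and 0.192, and both passed without knockout mouse 1 (adjusted p 0.0288 and 0.0336) and with library weights (adjusted p 0.0351 and 0.0470). Without that mouse, 2 further genes passed, the transcription factor genes Sox7 and Sox17, at 1.05 and 1.02 (limma, adjusted p 0.0292 and 0.0297). That made 2 of 25 higher and 2 lower, where 5.35% and 2.63% of all tested genes were. Over all libraries Sox7 and Sox17 overlapped between the groups, at 0.58 and 0.71 (limma, adjusted p 0.558 and 0.391). Both were higher in knockout mice 2 and 3 than in the other libraries. Sox17 was at 15.6 and 20.8 TPM in the control pair, against 19.2, 37.4 and 37.8 TPM in knockout-labelled mice 1, 2 and 3. The summed epithelial markers had that pattern too, and the part of epithelial cells in these values was not tested. Cd34, which fibroblasts also express, and Cd93 had log2 fold changes of -0.84 and -0.75 (limma, adjusted p 0.329 for each).

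Arterial, venous and mural lists also had 0 calls in limma, out of 6, 5 and 10 genes tested, with 0, 2 and 1 at an unadjusted p under 0.05, where 13.6% of all tested genes were. In every knockout-labelled library 1, 1 and 4 of them lay below both controls, where 21.9% of all tested genes did. Above both controls were 0, 2 and 0, beside 11.9% of all tested genes. Selp, a selectin of venous endothelium and platelets, was at 16.1 and 15.5 TPM in the control pair, against 7.60, 5.49 and 4.26 TPM in knockout-labelled mice 1, 2 and 3 (a log2 difference of -1.34, limma adjusted p 0.157). Nr2f2, a regulator of venous identity that stromal cells also express, was at 92.0 and 101.3 TPM in the control pair, against 156, 162 and 143 TPM in the others (log2 fold change 0.66, limma adjusted p 0.197). Both passed without knockout mouse 1, where 7.98% of all tested genes did, at -1.52 and 0.65 (limma, adjusted p 0.0200 and 0.0374). They also passed with library weights (adjusted p 0.0245 and 0.0419). Ephb4, another venous gene, was above both controls with a log2 fold change of 0.16 and a standard error of 0.15. Without that library Sox17, also an arterial gene, and the mural gene Des passed too, Des at -0.88 (limma, adjusted p 0.0262) beside -0.54 over all libraries. Gja4, an arterial connexin, and the mural genes Mcam, Rgs5 and Notch3 were below both controls in all 3, with log2 fold changes of -0.42, -0.56, -0.43 and -0.29 and limma adjusted p of 0.456, 0.327, 0.454 and 0.529.

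Genes that carry or dampen the VEGF signal had a median log2 fold change of -0.41. In limma 0 of 14 passed and 2 had an unadjusted p under 0.05, where 13.6% of all tested genes did. In every knockout-labelled library 6 were below and 0 above both controls, where 21.9% of all tested genes were below. Vash1, an inhibitor made by endothelial cells, was at 12.3 and 7.92 TPM in the control pair, against 4.91, 6.49 and 4.76 TPM in knockout-labelled mice 1, 2 and 3. The thrombospondins Thbs1 and Thbs2, secreted inhibitors of vessel growth, and the kinase gene Prkca had log2 fold changes of -0.42, -0.56 and -0.45. Without knockout mouse 1 the secreted protease gene Adamts1 passed, at -1.23 (limma, adjusted p 0.0260) beside -0.85 over all libraries. It was the only 1 of 14 to pass there, where 7.98% of all tested genes did. The adjusted p over all libraries was 0.309 for Vash1, 0.368 for Thbs1, 0.394 for Thbs2 and 0.419 for Prkca.

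Vegfa is a target of the hypoxia-inducible factors, so the other genes of that response are given beside it. Of 17, 0 passed in limma, 5 had an unadjusted p under 0.05, and 7 were above and 3 below both controls in every knockout-labelled library, with a median log2 fold change of 0.27. Over all tested genes 11.9% were above and 21.9% below, and 13.6% had an unadjusted p under 0.05. Adm, which encodes the vessel-dilating peptide adrenomedullin, was low like Vegfa, at 97.7 and 82.6 TPM in the control pair, against 44.5, 40.0 and 46.8 TPM in knockout-labelled mice 1, 2 and 3. The difference was -1.02 on the log2 scale (limma, adjusted p 0.118), and -1.04 without knockout mouse 1 (adjusted p 0.0223). With library weights it was -1.08 (limma, adjusted p 0.0221). Ldha and Pdk1 were above both controls in all 3 libraries. Ldha, for lactate dehydrogenase, was at 107.9 and 113 TPM in the control pair, against 115, 181 and 257 TPM in knockout-labelled mice 1, 2 and 3. Pdk1, a kinase that keeps pyruvate from the mitochondria, was at 11.3 and 11.9 TPM in the control pair, against 12.7, 26.7 and 29.1 TPM in knockout-labelled mice 1, 2 and 3. In both, knockout mouse 1 was close to the controls. Their log2 fold changes were 0.66 and 0.84 (limma, adjusted p 0.411 and 0.368), and 0.96 and 1.20 without knockout mouse 1 (adjusted p 0.0362 and 0.0173). Without that library Hif1a and Pgk1 passed too, at 0.70 and 1.55 (limma, adjusted p 0.0441 and 0.0203), beside 0.35 and 0.91 over all libraries, where both overlapped between the groups with knockout mouse 1 the lowest library. Ldha, Pdk1, Hif1a and Pgk1 were thus high in knockout mice 2 and 3 and near or below the controls in mouse 1. The summed epithelial markers, mostly Ovgp1, had the same pattern, with 3065 and 3334 TPM in the control pair and 2163, 12066 and 13169 TPM in the others. Their part in these values was not tested. Epas1, a factor subunit abundant in endothelial cells, was above both controls with a log2 fold change of 0.51 (limma, adjusted p 0.318). Without knockout mouse 1, 4 of the 17 genes passed as higher and 1 as lower, where 5.35% and 2.63% of all tested genes did.

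Levels of markers of other cells that the sort could hold also differed between these libraries. Immune markers, from cells that can also express Pecam1, summed to 1955 and 2530 TPM in the control pair, against 1490, 951 and 679 TPM in knockout-labelled mice 1, 2 and 3, and 7 of 8 were below both controls in all 3, where 21.9% of all tested genes were. Without knockout mouse 1, 4 of 8 immune markers passed as lower in limma (Adgre1, Csf1r, Itgam and Lyz2), against 2.63% of all tested genes. Most of the immune sum was Lyz2. Epithelial markers summed to 3065 and 3334 TPM in the control pair, against 2163, 12066 and 13169 TPM in knockout-labelled mice 1, 2 and 3, with 0 of 10 separated. Most of that sum was Ovgp1, at 2273 and 2463 TPM in the control pair, against 1522, 10655 and 11258 TPM in the others. Sums weigh abundant genes most and do not give shares of cells. Without knockout mouse 1, 6 of 10 passed as higher in limma, against 5.35% of all tested genes, with Ovgp1, the oviduct glycoprotein, at 2.21 (adjusted p 0.0157). Platelet markers summed to 114 and 112 TPM in the control pair, against 71.4, 60.3 and 56.6 TPM in knockout-labelled mice 1, 2 and 3. Of these 4 of 6 were below both controls, beside 21.9% of all tested genes. No immune, epithelial or platelet marker was at 0 in any library. Stromal markers summed to 23017 and 18735 TPM in the control pair, against 16018, 12152 and 14226 TPM in the others. Of these 4 of 8 were below both controls and 1 above, beside 21.9% and 11.9% of all tested genes. Of 9 genes that tissue handling induces, 3 (Egr1, Atf3 and Hspa1a) were below both controls and 0 above, a count not far from the 21.9% of all tested genes. Without knockout mouse 1 the platelet marker Pf4, the stromal marker Lum and the handling genes Atf3 and Hspa1a passed as lower, at -1.22, -1.89, -1.1 and -1.01 (limma, adjusted p 0.0140, 0.0209, 0.0246 and 0.0253). The globin genes of red blood cells were listed at 0 throughout, and Alas2 was between 1.502 and 7.96 TPM. In each of these lists 0 genes passed in limma over all libraries, and 5 immune, 0 epithelial, 3 platelet, 4 stromal and 1 handling gene had an unadjusted p under 0.05, all of them lower, where 9.87% of all tested genes were. The part of these cells and of handling in the Vegfa and endothelial values was not tested.

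**Figure D4:**
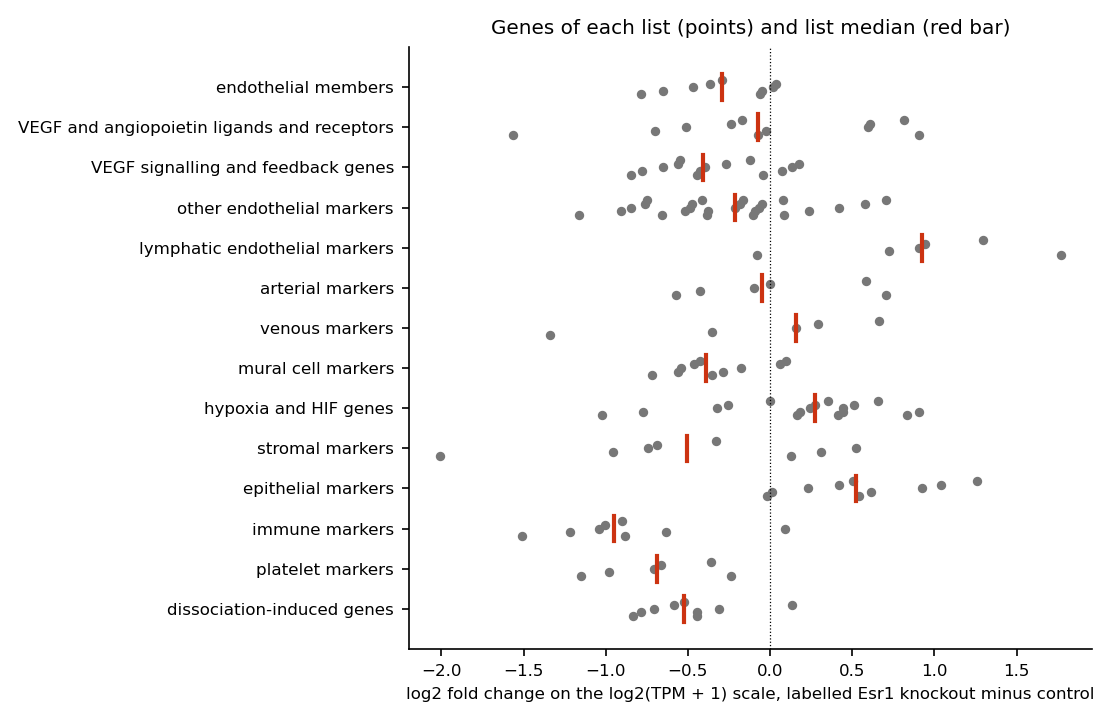
Log2 fold change on the log2(TPM + 1) scale (x axis, labelled knockout minus control) of each tested gene (grey points) in 14 lists (rows), with the list median as a red bar; points are offset vertically only to separate them. The 9 endothelial genes have a median of -0.29 and the lymphatic genes one of 0.92, and immune markers lie lowest at -0.95.

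The 9 endothelial genes summed to less than the 8 stromal markers in every library. These sums weigh abundant genes such as the stromal gene Dcn most, so they do not give shares of cells. Per length, Pecam1 stood at 0.197 and 0.229 of Pdgfra in control mice 2 and 3 and at 0.116, 0.203 and 0.167 of it in knockout mice 1, 2 and 3, with overlap. Pdgfra itself averaged 206 ± 26.7 TPM (SD, n = 2) in controls, against 231 ± 66.5 TPM (SD, n = 3) under the knockout label. None of the 9 endothelial genes was at 0 in any library, and their means over the 5 libraries ran from 7.91 TPM for Flt1 to 52.7 TPM for Emcn.

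Genes with the most similar profile were looked for among 12596 other genes with a mean of at least 5 TPM, by the root mean square distance between centred log2(TPM + 1) values over the 5 libraries. The closest to Vegfa were Lrrc20, the nuclear non-coding RNA Neat1, the cell cycle inhibitor Cdkn1a, Grifin and Immp2l, at distances of 0.059 to 0.099, where the profile of Vegfa itself had a standard deviation of 0.44. Neat1 was at 25.0 and 29.9 TPM in the control pair, against 13.5, 15.6 and 16.0 TPM in knockout-labelled mice 1, 2 and 3. Cdkn1a was at 80.6 and 89.8 TPM in the control pair, against 49.8, 48.8 and 58.6 TPM in the others. The closest to the mean of the 9 endothelial genes were Zfp979, Als2cl, Eogt, 9430015G10Rik and Bcl6b, a repressor found in endothelial cells, at distances of 0.028 to 0.061, with 0.27 as the standard deviation of the mean profile. Bcl6b was at 6.19 and 7.22 TPM in the control pair, against 5.34, 7.85 and 4.53 TPM in knockout-labelled mice 1, 2 and 3. Its likeness to the 9 follows from the search, which picked genes by closeness of profile. The 5 points of each profile share their libraries, and with them depth and cell content.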

How the data were processed

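The deposited values are TPM, length-corrected transcript shares, per gene for 5 libraries, 1 per mouse, which the authors scaled so that each library sums to 1000000. Per the labels, total RNA of sorted cells went into a low-input SMARTer mRNA library. The name of the authors' table contains STAR, and the submitters' processing notes name mm10. The version, gene counter, annotation and read filters are not given in the sources used here. A share of the library falls when an abundant RNA rises: Rpph1 alone took 13.1% to 22.3%.

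On the log2(TPM + 1) scale, limma 3.58.1 under R 4.3.3 was used (eBayes with a mean-variance trend, genotype as the only term) for 19292 genes with at least 1 TPM in at least 2 libraries, with Benjamini-Hochberg adjustment over all of them and a threshold of 0.05. Tests were two-sided, intervals are 95%, and folds of low genes are understated. The script was tested on simulated data. Exact permutation used all 10 assignments of libraries. Members and lists were chosen with earlier results of these data known. Named were the 10 genes, Esr1, Pdgfra, the pathway ligands and receptors, in each other list the genes past the threshold or, with none, up to 4 with the largest fold change among those with a mean of at least 5 TPM and no overlap between groups, and the 5 nearest profiles. Lists of other cells are given mainly as sums. Pdpn, Lyve1, Ccl21a, Alas2 and the genes that passed only without knockout mouse 1 and were not already named were named after their values were seen. Alternatives were a pseudocount of 0.1 or 5, other filters, scalings, variance models, library weights, a replicate block and leaving out each library.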

Additional observations from a re-analysis of the deposited data

How the results depend on the processing

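Under 15 alternatives the Vegfa log2 fold change of -0.87 kept its sign, from -0.945 to -0.789 without 1 library at a time. It passed the threshold with library weights (-0.863, limma adjusted p 0.0281) and without knockout mouse 1, and over all alternatives its adjusted p ran from 0.0169 to 0.749. The number of the 10 genes called lower, 0, was 1 with library weights and 0 to 1 without 1 library each; 0 were called higher in any. Genes called over the whole table, 2 higher and 3 lower, were 0 and 0 for a pseudocount of 0.1 and for a minimum mean of 5 TPM (unadjusted p under 0.05 in 2233 and 1389 genes), and 260 and 396 with library weights, 3.4% of those tested. The higher genes were 1 with no filter and 0 with quantile normalization, median-of-ratios scaling and eBayes without trend (2573, 3000 and 2800 genes of either direction at an unadjusted p under 0.05), and the lower were 5 without Rpph1 and Rn45s. Without 1 library each they ran from 0 to 1022 and from 0 to 502, both highest without knockout mouse 1. Fits without a control assume that the lone control varies like the other group.

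Small fold changes turned sign. Egfl7 was -0.0626 with quantile normalization and -0.0376 without Rpph1 and Rn45s, where Tie1 was -0.0227, and Vegfb was 0.0197 with median-of-ratios scaling. With library weights Cdh5 was 0.15, Emcn 0.0819, Esr1 0.146, Vegfb 0.089, Ptprb 0.0471 and Lyve1 0.102. Without 1 library each, the ranges were -0.393 to 0.29 for Cdh5, -0.302 to 0.174 for Emcn, -0.264 to 0.305 for Egfl7, -0.131 to 0.143 for Tie1, -0.683 to 0.574 for Esr1, -0.0744 to 0.35 for Pdgfra, -0.132 to 0.0905 for Vegfb, -0.295 to 0.15 for Vegfc, -0.486 to 0.143 for Ptprb, -0.288 to 1.78 for Angpt4 and -0.285 to 0.123 for Lyve1. The cause was not tested.

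With the mouse number as a replicate block, 1165 genes were higher and 693 lower (9.63% of those tested), 2 of the 10 genes were called lower, Plvap (-0.896, limma adjusted p 0.0292) and Vegfa (-0.804, limma adjusted p 0.0169), and signs turned for Cdh5 (0.0175), Emcn (0.0381), Esr1 (0.574), Pdgfra (-0.0744), Vegfb (0.0905), Vegfc (0.105), Angpt4 (-0.288) and Lyve1 (0.0948). Mouse 1 has no partner there, so each fold change is that without knockout mouse 1. Deviations of same-numbered mice from their group means correlated at -0.06 and -0.072 across genes. The deviations of the 2 controls mirror each other, and the knockout mean includes unpaired mouse 1. These correlations therefore cannot show whether same-numbered mice shared a litter or a day. For the 45 named genes other than Vegfa and Esr1, 675 alternative values kept their sign and side of the threshold in 603 cases, came to pass it in 37 and turned sign in 35. TPM hold no depth, so counting error of the lower genes, such as Prox1 and Flt1, is unknown.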

Other observations

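Ratios within a library do not depend on the scaling of that library. They were chosen after the values were seen and are given without a test. The level of the lymphatic receptor gene Flt4 per Kdr was 0.272 and 0.262 in the control pair, against 0.801, 0.718 and 0.677 in knockout-labelled mice 1, 2 and 3. Mmrn1 per Pecam1 was 0.322 and 0.252 in the controls and 1.21, 1.32 and 1.27 in the libraries labelled knockout. Prox1 per Pecam1 was 0.0661 and 0.0739 in the controls and 0.183, 0.189 and 0.203 in the others. Reln per Pecam1 was 0.143 and 0.102 in the controls and 0.322, 0.400 and 0.529 in the others. In the first 3 ratios, but not for Reln, the libraries labelled knockout lay closer to each other than to either control, although the groups overlapped in Kdr and Pecam1. Lyve1 per Pecam1 overlapped, at 0.774 and 0.597 in the controls and 0.632, 0.760 and 1.03 in the others.

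Vegfa per Vegfb was 1.92 and 2.22 in the controls and 1.24, 0.966 and 1.26 in the libraries labelled knockout. Per Pgk1, a glycolytic gene of the hypoxia response, Vegfa was at 1.04 and 1.23 in the controls and at 0.736, 0.253 and 0.187 in knockout mice 1, 2 and 3. Angpt2 per Angpt1 was 0.450 and 0.470 in the controls, 0.487 in knockout mouse 1, and 1.36 and 1.81 in knockout mice 2 and 3, so mouse 1 stood with the controls in that ratio.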
